A study of Mus musculus with 3 samples.

Results

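The cells described here come from the mouse infrarenal aorta, were taken as macrophages by the rule below and carried transcripts of Spp1, Vegfa or Adora2b. They numbered 147 of 9750 cells. They were chosen by their own counts of unique molecular identifiers (UMIs, the molecules counted). Each had 200 or more detected genes, mitochondrial genes making up at most 10% of its UMIs, 2 or more UMIs of Fn1 and Msr1 together and at least 2 UMIs of Spp1, Vegfa and Adora2b together. Cells of other kinds were kept out by at most 1 UMI of Lyve1, Folr2, Cbr2, Timd4 and Cd209f together (genes of resident macrophages), by 0 UMIs of Csf3r and under 100 UMIs of S100a8 and S100a9 per 10000 (neutrophils), and by 0 UMIs of Cd79a, Cd3e and Col1a1 (B cells, T cells and fibroblasts). The levels of these genes are therefore properties of the selection and are given as a description.

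Spp1 encodes osteopontin, a secreted matrix protein that macrophages make in wounds and in atherosclerotic lesions. Vegfa encodes a growth factor of endothelial cells and Adora2b a low-affinity receptor for extracellular adenosine, and both are known targets of hypoxia-inducible factors. These factors are stabilised when oxygen is low and switch on genes of glucose uptake, glycolysis and mitochondrial turnover by binding a short DNA core. In the aneurysmal aorta, macrophages are known as a source of elastin-degrading proteases, cytokines and matrix proteins.

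The study measured CD45-positive immune cells of wild-type mice by droplet-based 3' single-cell RNA sequencing in 3 libraries, with 1 library per group and all aortas of a group mixed before loading. The labels give PBS as the treatment of the Sham library and elastase as that of the AAA_14 library, with 50 control and 20 aneurysm aortas pooled. The library titled AAA_7 has a title that names an aneurysm and a treatment label that gives PBS, and no number of aortas of its own. It is called here by its title, AAA_7, and any difference between it and AAA_14 is a difference between these 2 libraries. Neither the unit of the 7 and 14 in the titles nor the age of the mice is given in the sources used here. A library held 3496 to 10108 barcodes and 13341534 to 67243700 UMIs, and the filters on cells kept 32.6% of the barcodes in Sham, 92.4% in AAA_7 and 52.3% in AAA_14. The libraries shared 5 to 12 barcodes in pairs, and none of these was a selected cell in both. With 1 library per group no test between groups was possible, so the 95% intervals of shares and of single genes below cover counting error only, and those of list medians give the spread between the genes of a list.

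The selected cells made up 3.56% of the cells of AAA_7 (115 of 3229, exact Clopper-Pearson 95% interval 2.95% to 4.26%) and 0.605% of those of AAA_14 (32 of 5286, 0.414% to 0.854%). Sham held 0 of 1235, which allows a share of up to 0.243% by a floor of 3 cells and up to 0.298% by the exact interval. By the definitions given below, Sham also held 0 resident-like macrophages, 1 C1q MHC class II macrophage and 2 Ly6c2 monocytes. Only 2 of its cells met the limit on Fn1 and Msr1 and every exclusion. The 0 of Sham therefore says little about how common this state was among its macrophages. In AAA_7, 253 cells met both positive criteria before any exclusion, against 130 in AAA_14 and 1 in Sham. Csf3r removed more of them than any other exclusion, being present in 99 of the 253 and 65 of the 130. Resident genes were above the limit in 36 and 23 of these cells, and Col1a1 was present in 17 of the 253 and 27 of the 130. Without the limit on Csf3r the shares were 5.42% and 1.29%. The shares are shares of CD45-enriched cells that passed the filters, so they also move with how many other cells each library held.

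The selected cells were deeper in AAA_14, with a median of 11774 UMIs (5555 to 39740) against 5609 (709 to 26242) in AAA_7. Their summed UMIs were 449148 and 682458. The median share of mitochondrial UMIs was 4.48% in AAA_14 and 1.08% in AAA_7. Depth and mitochondrial share thus moved with every comparison of the libraries below, and their part in the results was not tested. For Thbs1, Il1b and Tnf, shares of cells are also given after thinning each cell to 2000 UMIs, which left out 7 of the selected cells of AAA_7 and none of AAA_14. Other numbers of cells with a UMI are unthinned and also move with depth.

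The selection met the rule in different ways in the libraries. Spp1 was the more variable gene: its level, in CPM (UMIs of the gene over all UMIs of the summed cells, scaled to 1e+06), was 2232 in AAA_7 and 1073 in AAA_14, from 66 and 18 cells, and 1 cell held 17.1% and 27.6% of these UMIs. Vegfa stood at 570.0 CPM in AAA_7 and 125 in AAA_14, with UMIs in 84 and 18 cells. Adora2b stood at 174 and 31.2 CPM, with UMIs in 61 and 7 cells. AAA_7 was higher for all 3 genes, most clearly for Vegfa and Adora2b. Fn1, which encodes the matrix glycoprotein fibronectin, was at 1433 and 1142 CPM, and Msr1, a scavenger receptor, at 297 and 180. All of these genes chose the cells, and the rule asks for a fixed number of UMIs whatever the depth of a cell. The selected cells of AAA_14 were deeper, so the rule could admit them at a lower CPM. The differences in these genes between the libraries are therefore a description, and the part of the rule in them was not tested. In the mouse genome (GRCm38/mm10, GENCODE vM21), Spp1 lies on chromosome 5 at 104435118-104441050, Vegfa on chromosome 17 at 46016993-46032369 and Adora2b on chromosome 11 at 62248984-62266453. The 3' chemistry reads the ends of these transcripts and does not tell their isoforms apart.

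**Figure D1:**
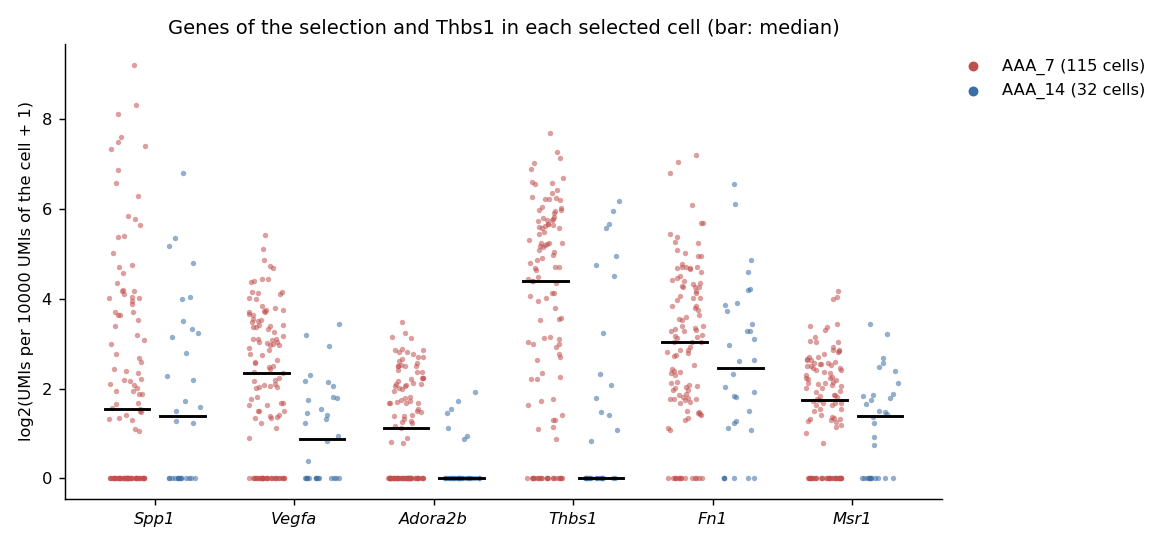
Each point is 1 selected cell; the vertical axis is log2 of the UMIs per 10000 UMIs of that cell plus 1, for the 5 genes of the positive criteria and Thbs1, in AAA_7 (115 cells) and AAA_14 (32 cells), and the black bar is the median. Many cells sit at 0 for each single gene of the rule, and the medians of Adora2b and Thbs1 are at 0 in AAA_14.

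Thbs1 was not used by the rule. It encodes thrombospondin-1, a secreted matrix glycoprotein that binds cell-surface receptors and activates latent transforming growth factor beta, and it lies on chromosome 2 at 118111876-118127133. Its level was 3039 CPM in AAA_7 and 732 CPM in AAA_14, a log2 ratio of AAA_14 over AAA_7 of -2.05 (95% interval -2.22 to -1.88). UMIs were found in 92 of 115 and 15 of 32 cells, and the median cell had 11 and 0 UMIs. After thinning to 2000 UMIs, 73.1% (63.8% to 81.2%) of the cells of AAA_7 and 34.4% (18.6% to 53.2%) of those of AAA_14 had a Thbs1 UMI. B cells of the same libraries, which should lack the gene, gave 12% and 1.87% at the same depth, which is the level that free RNA can give. The marker was carried by most selected cells of AAA_7 and by fewer in AAA_14. It was not limited to them. At this depth it was found in 45.5% (28.1% to 63.6%) of the Ly6c2 monocytes of AAA_7, a group defined below. The C1q MHC class II macrophages and resident-like macrophages of AAA_7 gave 31.2% (22.0% to 41.6%) and 8.59%.

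Cells close to the threshold were many. Exactly 2 UMIs of Spp1, Vegfa and Adora2b were found in 19 selected cells of AAA_7 and 8 of AAA_14, and 40 and 11 had 10 or more. Just outside, 29 cells of AAA_7, 13 of AAA_14 and 1 of Sham met every other criterion with 1 UMI. Thbs1 stood at 2650 CPM just inside and 2570 CPM just outside in AAA_7, and at 1336 and 815 CPM in AAA_14. Other genes differed more across the threshold: Ly6c2 was at 785 CPM inside and 266 outside in AAA_7, and in AAA_14 C1qa was at 10.2 and 196, Tnf at 20.4 and 265 and Arg1 at 0 and 411. The number of UMIs of the 3 genes had no gap at the threshold, so the selection is a range of UMI counts.

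The cells carried genes of macrophages and other myeloid cells in both libraries. All 13 genes of a macrophage identity list had UMIs. Lyz2 (lysozyme), Cd14 (a co-receptor for bacterial lipopolysaccharide) and Tyrobp (a signalling adaptor) were found in 114, 107 and 114 of the 115 cells of AAA_7 and in 31, 26 and 32 of the 32 cells of AAA_14. Adgre1 and Csf1r, of the same list, were found in 58 and 90 of the 115 cells of AAA_7. The summed list was at 14786 CPM in AAA_7 and 19036 in AAA_14. In the neutrophils of these libraries it was at 13215 and 11557 CPM, so it does not set macrophages apart from other myeloid cells. Cells with Ly6c2, a monocyte gene, were also in the selection, as given below. To see what set the selected cells apart, their sums were set against 3 other groups of the same library that passed the same exclusions. These were resident-like macrophages with C1q and resident genes (153 cells in AAA_7 and 222 in AAA_14), C1q MHC class II macrophages without resident genes (144 and 156) and Ly6c2 monocytes (38 and 68), the last 2 with at most 1 UMI of Spp1, Vegfa and Adora2b. The groups were cut by genes of the same cells, so the comparison is a description. Over all genes with at least 30 UMIs, 6.13% were at least 2-fold higher and 11.0% at least 2-fold lower in the selected cells of AAA_7, and 5.79% and 11.3% in AAA_14.

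In AAA_7 the hypoxia response list stood above the other groups pooled. Of 19 genes with enough UMIs, 11 were at least 2-fold higher, none was 2-fold lower, and the median log2 ratio was 1.13 against -0.09 over all genes counted. Slc2a1, the glucose transporter GLUT1, was at a log2 ratio of 2.20 and Ero1l, an oxidase of the endoplasmic reticulum, at 2.34. Hilpda, a protein of lipid droplets, was at 2.29 and Mxi1, a repressor that competes with Myc for its partner, at 2.18. Glycolysis genes went the same way, with 8 of 14 at least 2-fold higher, none lower and a median of 1.10. Slc16a3, the lactate exporter MCT4, had the highest ratio of this list at 2.60, and Pgam1 (phosphoglycerate mutase) was at 1.49. The 34 genes of oxidative phosphorylation had a median of -0.05 and none past 2-fold.

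In AAA_14 the same cells did not stand out by the hypoxia list. Only 2 of 20 genes were at least 2-fold higher, 1 was lower, and the median log2 ratio was 0.26 against 0.03 over all genes counted. Slc2a1, at 2.47, and Hif1a, at 1.0, were the 2 higher genes and Pfkfb3 the lower one, while Mxi1 was at 0.28, Ero1l at 0.36 and Hilpda at 0.06. Of 14 glycolysis genes, 2 were at least 2-fold higher, Slc16a3 (2.04) and Pkm, pyruvate kinase (1.13), and the list median was 0.73. Against the resident-like cells, the C1q MHC class II cells and the Ly6c2 monocytes singly, the hypoxia medians were 0.08, 0.47 and 0.07. Those of glycolysis were 1.06, 0.65 and 0.26. Over the Ly6c2 monocytes, 2 of 15 hypoxia genes were at least 2-fold higher and 1 was lower. Of 13 glycolysis genes 0 were higher, against 6.35% of all genes. By this list the word hypoxic describes the selected cells of AAA_7 more than those of AAA_14. The selection itself used Vegfa and Adora2b, known targets of the same factors. The C1q MHC class II and Ly6c2 groups had at most 1 UMI of Spp1, Vegfa and Adora2b. The rule could also admit the deeper cells of AAA_14 at a lower CPM of these genes. The part of the selection in the levels of the hypoxia list was not tested. In AAA_14 the name rests on the Spp1, Vegfa and Adora2b UMIs of the rule. Thbs1, the marker outside the rule, had no UMI in the median selected cell of AAA_14. That the libraries differ by the hypoxia list was not tested.

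Genes of matrix and adhesion were higher than in the other groups in both libraries. In AAA_7, 11 of 19 were at least 2-fold higher and 1 was lower (median 1.14), and in AAA_14 9 of 19 were higher and 1 lower (median 0.75). Thbs1 was at log2 ratios of 3.33 and 2.39. Tgfbi, a secreted protein that binds integrins and collagen, was at 1.46 and 1.26, and Cd44, the receptor for hyaluronan and osteopontin, at 1.32 and 1.06. Cd9, a tetraspanin, was at 1.81 and 3.10 and Tgm2, an enzyme that crosslinks matrix proteins, at 1.92 and 2.17.

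Inflammatory genes were higher in the selected cells of AAA_7, with 14 of 21 at least 2-fold higher, 1 lower and a median of 1.52, and 8 of 20 higher and 2 lower in AAA_14, with a median of 0.15. These values are against the other groups together, and the single groups differed. The medians in AAA_7 and AAA_14 were 1.81 and -0.07 against the resident-like cells and 1.43 and 0.32 against the C1q MHC class II cells. Against the Ly6c2 monocytes they were 0.99 (10 of 20 higher) and 1.10 (9 of 16 higher), where 9.53% and 6.35% of all genes were higher. Genes of resident macrophages that the rule did not name were lower in both, 15 of 18 in AAA_7 (median -2.76) and 16 of 18 in AAA_14 (median -3.31). Selenop, a selenium carrier, stood at log2 ratios of -2.73 and -3.59 and Maf, a transcription factor of resident macrophages, at -2.79 in both libraries. The rule limits resident genes, so this last difference follows the selection. Oxidant defence genes were at medians of 0.53 in AAA_7 and 0.98 in AAA_14, with 6 of 17 and 8 of 17 at least 2-fold higher. Slc7a11, the cystine importer, was at 3.06 and 2.01, and Srxn1, which repairs oxidised peroxiredoxins, at 2.35 and 2.51.

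**Figure D2:**
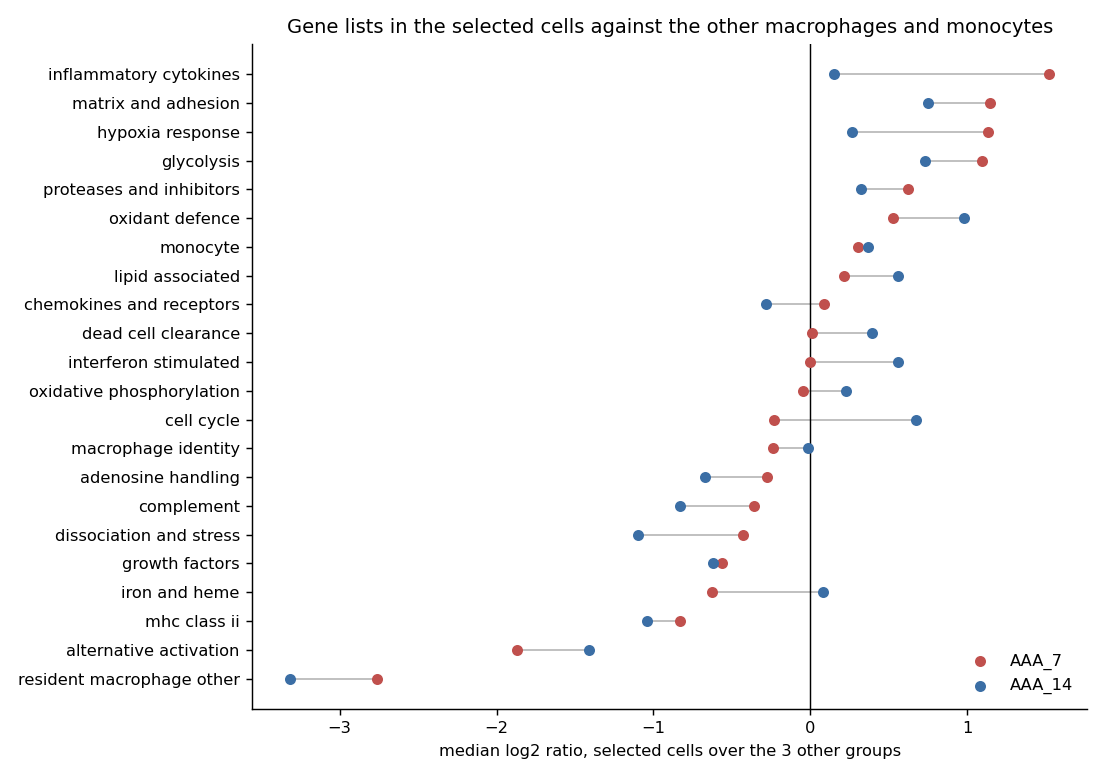
Each row is a gene list, and the horizontal axis is the median log2 ratio of the selected cells over the other 3 macrophage and monocyte groups of the same library, in AAA_7 (red) and AAA_14 (blue), joined by a grey line. Hypoxia response sits at 1.13 in AAA_7 and 0.26 in AAA_14, inflammatory cytokines at 1.52 and 0.15, and the resident list lies below -2.7 in both. The other groups are pooled here, and medians against single groups differ.

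The 12 genes that stood highest in both libraries over the other groups, among genes with at least 100 CPM in both, were Clec4e, Thbs1, F10, Smox, Plaur, Il1rn, Malt1, Bhlhe40, Tgm2, Cd9, AA467197 and Hp. Clec4e, the receptor Mincle that senses dead cells and mycobacterial lipid, was at log2 ratios of 2.26 and 1.94. Plaur, the receptor that places urokinase at the cell surface, was at 2.53 and 1.80, and F10, coagulation factor X, at 2.53 and 1.97. Il1rn, the antagonist of the interleukin-1 receptor, was at 1.97 and 2.28. AA467197, also known as Nmes1, was at 2.64 and 3.50. Nt5e, the ecto-enzyme CD73 that makes adenosine from AMP, was at 45.4 and 66.8 CPM, which is 3.0 and 4.80 above the other groups on the log2 scale, from 19 and 8 cells. Of the adenosine genes counted, 3 of 8 were at least 2-fold higher and 1 lower in AAA_7, and 2 of 10 higher and 4 lower in AAA_14. Besides Nt5e, the higher ones were Adora2a (1.55 and 1.29) and, in AAA_7, Pde4b (1.47, against 0.01 in AAA_14). Slc29a1, a nucleoside transporter, was lower in both (-1.41 and -1.50), and Cd38 (-2.91), Ada (-2.85) and Enpp1 (-1.05) were lower in AAA_14. Entpd1 (CD39), which makes the AMP that Nt5e uses, was at -0.66 and -0.65.

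Between the libraries, the selected cells of AAA_14 were set against those of AAA_7 for the 4485 genes with at least 30 UMIs in all. Of these, 331 (7.38%) were at least 2-fold higher and 363 (8.09%) at least 2-fold lower in AAA_14, at a median log2 ratio of 0.06. The 2 other scalings moved all genes by 0.17 (TMM) or 0.19 (median of ratios) towards lower values in AAA_14, so small differences have no firm direction. The genes of the rule were left out of these counts.

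The hypoxia response list was lower in AAA_14. Of its 27 genes, 18 had enough UMIs, and 11 of these were at least 2-fold lower and none 2-fold higher (median log2 ratio -1.12, order-statistic 95% interval over the genes -1.76 to -0.77). The 9 genes with too few UMIs were Egln3, Ankrd37, P4ha2, Pdk1, Pfkfb4, Ak4 and Nos2, and Adm and Vldlr, which had none. Mxi1 was at 232 CPM in AAA_7 and 31.2 in AAA_14 (158 and 14 UMIs), a log2 ratio of -2.85 (-3.80 to -2.10). Bnip3, which acts in the removal of mitochondria, was at 57.1 and 8.91 CPM (39 and 4 UMIs), a ratio of -2.53 (-4.63 to -1.21). Ero1l was at 157 and 26.7 CPM (-2.50, -3.55 to -1.69). These 3 were found in 59, 25 and 45 of the 115 cells of AAA_7 and in 11, 4 and 8 of the 32 cells of AAA_14. Ndrg1, a stress-induced gene, was at 180 and 40.1 CPM (-2.14, -2.97 to -1.45), but 1 cell held 50.0% of its UMIs in AAA_14. Hif1a, which encodes the oxygen-regulated subunit of the factor itself, was at 423 and 236 CPM (-0.84, -1.18 to -0.52). Plin2, a lipid droplet coat protein, was at 702 and 412 CPM (-0.77).

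The list did not move as far in the other macrophages and monocytes of the same libraries. Its median log2 ratio of AAA_14 over AAA_7 was -0.19 in the 3 other groups together, with 2 of 20 genes at least 2-fold lower and 1 higher (2.65% and 4.45% of all their genes). It was 0.01 in the resident-like cells, -0.40 in the C1q MHC class II cells and -0.34 in the Ly6c2 monocytes. Within the selected cells it was -1.35 in those with a Spp1 UMI (66 and 18 cells) and -1.05 in those without (49 and 14 cells). The difference between the groups was not tested. The selection used Vegfa and Adora2b, known targets of the same factors, and could admit the deeper cells of AAA_14 at a lower CPM of them. The part of this in the hypoxia list was not tested. With every cell thinned to 2000 UMIs before the selection, which also changed the selected cells and left 7 genes, the median was -0.34. Without selected cells that carried UMIs of 2 or more genes of another cell type, which left 103 cells of AAA_7 and 11 of AAA_14, it was -1.35.

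The promoters of the 3 genes with the largest differences of this list that RefSeq (GRCm38.p6) held are shown, because the list is built around 1 family of factors. The capitals mark ACGTG on either strand (CACGT on the other), a form of the core that hypoxia-inducible factors bind. Each stretch is the sequence upstream of the start on the strand of the gene, cut where it met an annotated exon. They lie at chr19:53329163-53329412 (plus strand, Mxi1), chr7:138909520-138909756 (minus strand, Bnip3, ending 13 bases before the start) and chr14:45318573-45318702 (minus strand, Ero1l, named Ero1a in RefSeq).
Mxi1: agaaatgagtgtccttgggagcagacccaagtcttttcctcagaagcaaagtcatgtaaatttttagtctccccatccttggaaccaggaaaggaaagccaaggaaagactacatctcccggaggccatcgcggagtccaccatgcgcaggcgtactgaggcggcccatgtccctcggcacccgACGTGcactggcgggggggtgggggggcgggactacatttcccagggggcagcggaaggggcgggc
Bnip3: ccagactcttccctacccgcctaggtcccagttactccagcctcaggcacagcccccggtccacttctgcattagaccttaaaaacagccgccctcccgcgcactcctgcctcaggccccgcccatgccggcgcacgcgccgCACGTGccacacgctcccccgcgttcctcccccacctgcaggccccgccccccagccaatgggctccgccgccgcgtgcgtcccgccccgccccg
Ero1l: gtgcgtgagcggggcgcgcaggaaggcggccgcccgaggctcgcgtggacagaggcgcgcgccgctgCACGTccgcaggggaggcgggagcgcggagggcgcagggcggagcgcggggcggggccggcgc
Mxi1 has 3 starts in RefSeq: the stretch shown is that of the second, the first has no match in its 250 bases, and the third lies within annotated exons and gives no stretch. The stretch of Bnip3 holds CACGTG, which matches on both strands, and those of Mxi1 and Ero1l hold 1 match each. Of 27 listed hypoxia genes, 23 had an entry, and 15 of these (65.2%) had a match in the 250 bases upstream of at least 1 start, here not cut at exons, against 4998 of 27025 genes (18.5%) in all. By single starts the shares were 50.0% (17 of 34) and 16.6% (5444 of 32851). Vegfa had a match at 1 of its 2 starts, which is absent from the stretch left when that window is cut at exons, and Adora2b and Spp1 had none in this window. Because the list is built around these factors, its higher share of matches can follow from how it was made and is no result of these cells. A match is a description of the letters and no evidence of binding in these cells.

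Glycolysis genes were lower in AAA_14 by less, with 2 of 13 at least 2-fold lower, none 2-fold higher and a median of -0.48 (-0.96 to -0.20). Slc16a3 stood at 382 CPM in AAA_7 and 91.3 in AAA_14, a log2 ratio of -2.05 (-2.58 to -1.59). Hk2, hexokinase 2, stood at 202 and 62.3 CPM (-1.68, -2.34 to -1.10). The enzymes further down were closer to 0: Pgk1 at -0.96, Ldha at -0.71, Pkm at -0.25 and Gapdh at -0.20. In the other 3 groups together the list median was -0.15. Oxidative phosphorylation was level between the libraries, at a median of -0.02 over 34 genes.

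**Figure D3:**
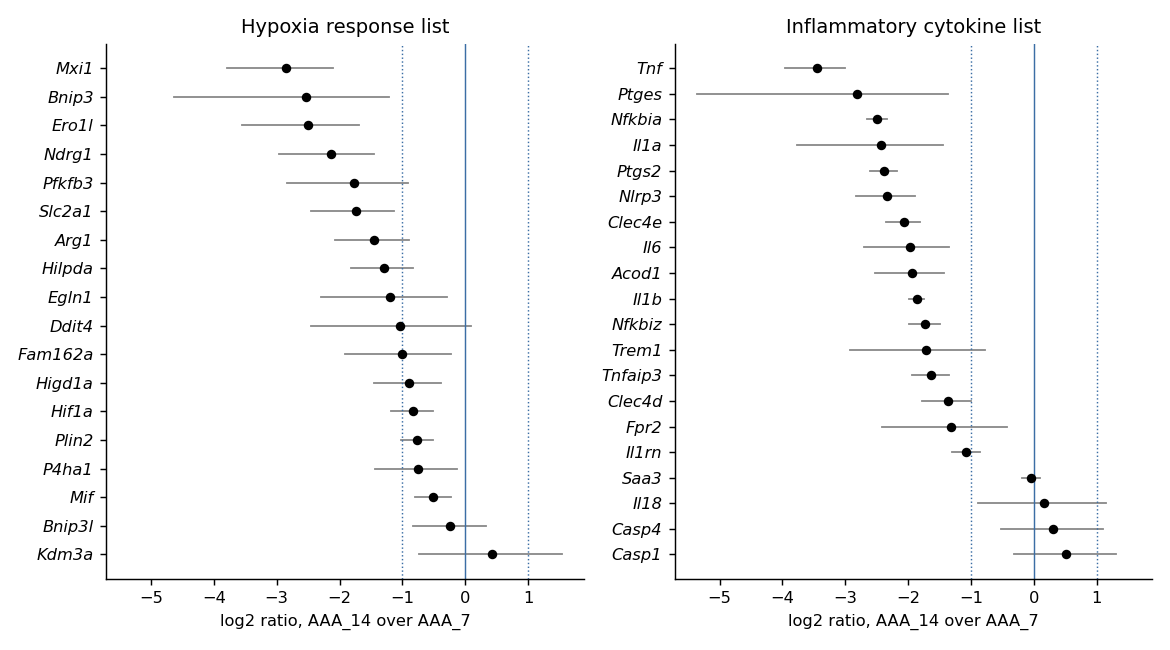
Points are log2 ratios of AAA_14 over AAA_7 in the selected cells for the counted genes of the hypoxia response (18) and inflammatory cytokine (20) lists, with lines for the 95% counting intervals; solid and dotted vertical lines mark 0 and a 2-fold difference. 17 of the 18 hypoxia genes lie below 0, and Tnf, at -3.45, is the lowest inflammatory gene.

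Of the adenosine genes, 7 of 13 had enough UMIs, and 3 were at least 2-fold lower and 1 higher in AAA_14. Adora2a, the high-affinity receptor that raises cyclic AMP, was at 41.0 CPM in AAA_7 and 15.6 in AAA_14 (-1.32, -2.84 to -0.17). Cd38, an ecto-enzyme that consumes NAD, was at 93.8 and 15.6 CPM (-2.50, -3.96 to -1.46), with log2 ratios of the selected cells over the other groups of -0.88 in AAA_7 and -2.91 in AAA_14. Pde4b, which breaks cyclic AMP down, was at 286 and 134 CPM (-1.09, -1.54 to -0.67). Pnp, the phosphorylase that takes adenosine's product inosine apart, was the gene that was higher, at 182 and 425 CPM (1.22, 0.89 to 1.56). The list was spread to both sides and its median of -0.66 describes few genes.

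Matrix genes had a median of -0.48, with 4 of 17 at least 2-fold lower and 2 higher. This list was at -0.35 in the other 3 groups together. It was at -0.32 in the resident-like cells, -0.45 in the C1q MHC class II cells and -0.54 in the Ly6c2 monocytes. In the selected cells, 4 genes of the list were thus lower by 2-fold or more. Sdc4, the syndecan that binds fibronectin at the cell surface, was at 759 and 140.3 CPM (-2.43, -2.84 to -2.06) and, after Thbs1, was the most abundant of the 4 lower genes. Tgfbi was at 2475 and 1866 CPM (-0.41) and Cd44 at 829 and 550 CPM (-0.59), both within 2-fold. Itgax, the integrin chain CD11c, was at 54.2 and 140.3 CPM (1.36, 0.76 to 2.0), but at a ratio of -0.55 after thinning, from 9 and 1 UMIs.

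Of 18 proteases and inhibitors, 10 were at least 2-fold lower in AAA_14, none was 2-fold higher, and the median was -1.06 (-1.49 to -0.38). Mmp12, the macrophage elastase, was at 463 and 44.5 CPM (316 and 20 UMIs), a log2 ratio of -3.34 (-4.11 to -2.73). It came from few cells, 17 of 115 and 4 of 32, and 1 cell held 25.3% and 45.0% of its UMIs. Mmp19 was at 154 and 53.4 CPM (-1.50, -2.23 to -0.88) and Cstb, an inhibitor of cathepsins, at 1388 and 583 CPM (-1.25, -1.45 to -1.05). Serpinb2, an inhibitor of urokinase, had 37 UMIs in AAA_7, 75.7% of them in 1 cell, and 0 in AAA_14, at least 8.12-fold lower against a floor of 3 UMIs. Ctsb, a lysosomal protease, was at 3020 and 1525 CPM (-0.98) and Ctss at 3106 and 3248 CPM (0.06). The list was also lower in the other 3 groups together, at a median of -0.63. It was at -1.03 in the C1q MHC class II cells (8 of 16 at least 2-fold lower), close to the selected cells. In the resident-like cells it was at -0.85 (7 of 18 lower) and in the Ly6c2 monocytes at -0.43 (6 of 14 lower). Of all genes in these 3 groups, 3.69%, 2.92% and 6.99% were lower. Selected cells with a Spp1 UMI were at -1.20 (10 of 17 lower, 10.6% of all genes) and those without at -0.45 (1 of 12, 12.5%). Without the selected cells that carried 2 or more genes of another type the median was -0.27.

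Growth factors had 5 of 9 counted genes at least 2-fold lower, 1 higher and a median of -1.07, but single cells made up much of them. Inhba, a subunit of activin, was at 327 and 35.6 CPM (-3.16, -4.03 to -2.47), with 41.7% and 93.8% of its UMIs in 1 cell. Gdf15, a stress-induced cytokine, was at 151 and 6.68 CPM, with all 3 of its UMIs of AAA_14 in 1 cell (log2 ratio -4.28, -6.80 to -2.91). Osm, oncostatin M, was spread over 75 and 18 cells at 467 and 223 CPM (-1.07, -1.41 to -0.74), but its ratio was 0.15 after thinning, from 56 and 14 UMIs. Igf1 was at 26.4 and 118 CPM (2.14), with 83.0% of the UMIs of AAA_14 in 1 cell, and at -0.23 without the limit on Csf3r.

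Inflammatory genes had the largest median difference among the 22 lists of cell functions, with 16 of 20 at least 2-fold lower in AAA_14, none higher and a median of -1.80 (-2.33 to -1.32). Il1b, interleukin-1 beta, was at 5445 CPM in AAA_7 and 1498 in AAA_14, a log2 ratio of -1.86 (-1.98 to -1.74). Tnf was at 982 and 89.1 CPM (-3.45, -3.96 to -3.00), with UMIs in 83 of 115 and 11 of 32 cells. Ptgs2, the inducible cyclooxygenase, was at 2393 and 459 CPM (-2.38, -2.60 to -2.17). Il1b and Tnf were found in 81.5% and 60.2% of the thinned cells of AAA_7 and in 46.9% and 12.5% of those of AAA_14, against 22.6% and 9.40% of the B cells of AAA_7 and 11.5% and 3.50% of those of AAA_14. Nfkbia, the inhibitor of NF-kappaB, stood at 4217 and 748 CPM (-2.49), and Il1rn at 1040 and 492 CPM (-1.08). Saa3, an acute phase protein, was near level at 1478 and 1432 CPM, but 1 cell held 82.3% and 88.2% of it.

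This difference was shared by some of the other cells. The inflammatory list had a median of -2.25 in the Ly6c2 monocytes (12 of 15 at least 2-fold lower, where 6.99% of all genes were) and -1.32 in the C1q MHC class II cells (9 of 17, where 3.69% were). In the resident-like cells the median was 0.29. Genes known to be induced while tissue is dissociated moved with it: in the selected cells 7 of 19 were at least 2-fold lower in AAA_14, 1 was higher and the median was -0.57. Among them Egr2, an immediate-early transcription factor, was at 111 and 2.23 CPM, Ier3 at 2019 and 434, Junb at 2935 and 1345 and Fos at 1122 and 712. The part of dissociation in the inflammatory difference was not tested.

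Chemokines went both ways, with 7 of 21 at least 2-fold lower and 3 higher and a median of -0.31. Cxcl2, a neutrophil attractant, was at 7033 CPM in AAA_7, the highest of this list, and 1623 in AAA_14 (-2.11, -2.23 to -2.0). In the other groups it was at 2079 and 3911 CPM, so the selected cells were above them in AAA_7 and below them in AAA_14. Pf4, platelet factor 4, was at 464 and 62.3 CPM (-2.87, -3.51 to -2.34), and Cxcr4, the receptor for Cxcl12, at 778 and 187 CPM (-2.05, -2.41 to -1.72). Cxcl10, an interferon-induced attractant of T cells, was at 694 and 1349 CPM (0.96, 0.78 to 1.13). Cxcl3 had 73.3% of its UMIs of AAA_7 and all of AAA_14 in 1 cell.

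Genes of alternative activation were mixed, with 4 of 10 at least 2-fold lower, 3 higher and a median of -0.14. Arg1, arginase 1, which also stands in the hypoxia list, was at 196 and 71.2 CPM (-1.45, -2.07 to -0.90), but it came from 21 of 115 and 5 of 32 cells, and 1 cell held 36.6% and 65.6%. Il10 was at 138 and 8.91 CPM, with its 4 UMIs of AAA_14 in 1 cell (log2 ratio -3.79). Mrc1, the mannose receptor, was at 110 and 44.5 CPM (-1.28), against 1084 and 937 CPM in the other groups. Chil3 was at 462 and 203 CPM (-1.18). Mgl2, a lectin, had 0 UMIs in AAA_7 and 47 in AAA_14, 68.1% of them in 1 cell, at least 23.8-fold higher against the floor. Arg1 was at 0.27 without the limit on Csf3r in the selection and at 1.14 after thinning.

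MHC class II genes were higher in AAA_14, 5 of 7 at least 2-fold and none lower, the median being 1.23 (0.86 to 2.53). Cd74, the invariant chain, was at 4535 and 11497 CPM (1.34, 1.28 to 1.41) and H2-Ab1 at 1947 and 4564 CPM (1.23, 1.13 to 1.33). Ciita, the transcription factor that controls these genes, was at 10.3 and 62.3 CPM (7 and 28 UMIs, log2 ratio 2.53, 1.38 to 4.04). The same list was at 1.49 in the resident-like cells and 1.47 in the C1q MHC class II cells, and at 0.10 in the Ly6c2 monocytes, where 1 of 6 genes was at least 2-fold higher. It was at 1.70 in selected cells with a Spp1 UMI and 0.25 in those without. B cells also carry MHC class II, and the summed B cell markers in the selected cells were at 117 CPM in AAA_7 and 214 CPM in AAA_14. Their part in the result was not tested.

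Interferon-stimulated genes were higher in AAA_14, 10 of 16 at least 2-fold and none 2-fold lower, with a median of 1.08 (0.59 to 1.39). Ifit3, an antiviral protein, was at 35.2 and 234 CPM (2.71, 2.08 to 3.44), Ifitm3 at 1637 and 3329 (1.02, 0.91 to 1.14) and Slfn5 at 212 and 543 (1.35, 1.05 to 1.66). Isg15 went the other way without reaching 2-fold, at 429 and 229 CPM (-0.90). In the other 3 groups together the median was 0.50. It was 0.91 in the C1q MHC class II cells and 0.90 in the Ly6c2 monocytes, with 6 of 16 genes at least 2-fold higher in each, and -0.16 in the resident-like cells.

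Cell cycle genes had 6 of 11 at least 2-fold higher in AAA_14 and none lower, but the UMIs came from few cells. Mki67, a nuclear protein of dividing cells, was at 38.1 and 122 CPM from 10 and 4 cells, and Birc5, survivin, at 13.2 and 80.2 CPM from 3 cells in each library. Hmgb2 was found in 60 and 25 cells at 246 and 717 CPM (1.54, 1.27 to 1.82), with 44.1% of the UMIs of AAA_14 in 1 cell. After thinning the ratios of Mki67 and Hmgb2 were -0.21 and -0.0070. The median of 1.25 therefore describes a handful of cells.

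Monocyte genes had a median of 0.48, with 3 of 12 at least 2-fold higher and 1 lower. Plac8 was at 1191 and 2267 CPM (0.93, 0.79 to 1.06), Ly6c2 at 721 and 906 CPM (0.33) and Hp, haptoglobin, at 105 and 365 CPM (1.79), or -0.29 without the limit on Col1a1. Leaving out the cells with 2 or more genes of another type turned this median to -0.61. The monocyte list was also higher in the other 3 groups together, at 0.35. It was at 0.18 in the resident-like cells, 0.52 in the C1q MHC class II cells and 0.61 in the Ly6c2 monocytes. Lipid-associated genes were level as a list (median 0.09, 3 of 18 lower and none higher), though Gpnmb, a membrane glycoprotein of lipid-laden macrophages, was at 234 and 6.68 CPM (160 and 3 UMIs, -4.92) and Olr1, a receptor for oxidised lipoprotein, at 133 and 13.4 CPM (-3.21, -4.80 to -2.14). Oxidant defence, at -0.17, had 5 of 16 lower and 1 higher, and Slc7a11 was at 311 and 82.4 CPM (-1.90, -2.46 to -1.41). Iron and heme genes were at -0.13, dead cell clearance at -0.03 and macrophage identity at 0.11, all within 0.2 of the median of all genes. The other resident genes were at -0.43, with 2 of 11 at least 2-fold lower. Complement genes were at 0.22, and at 0.57 in selected cells with a Spp1 UMI (3 of 10 higher, 1 lower) against -0.98 in those without (5 of 10 lower).

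**Figure D4:**
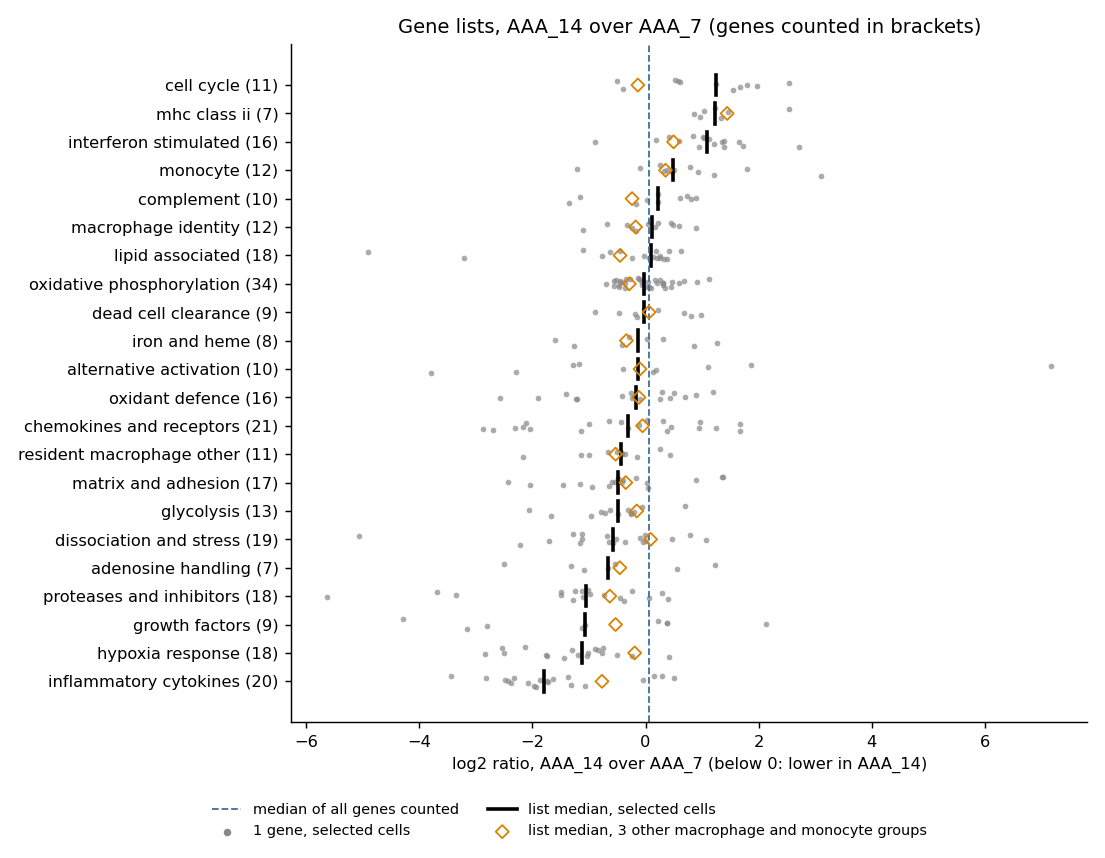
Each row is a gene list with the number of genes counted, and the horizontal axis is the log2 ratio of AAA_14 over AAA_7: grey points are single genes in the selected cells, black bars their median, open diamonds the median of the list in the other 3 macrophage and monocyte groups, and the dashed line the median of all genes (0.06). Inflammatory cytokines (-1.80 against -0.77), hypoxia response (-1.12 against -0.19) and cell cycle (1.25 against -0.14, from few cells) are among the lists set apart from the diamonds. MHC class II (1.23 against 1.44) is not.

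By rank, the 12 genes with the lowest ratios at 50 CPM or more were Gzma, Elane, Serpinb2, Flrt3, Egr2, Gpnmb, Lif, Gdf15, Il10, Prdm1, Tnf and Mmp12. Gzma and Elane are genes of cytotoxic lymphocytes and of early granulocytes, and each was almost wholly in 1 cell of AAA_7 (99.0% of 104 UMIs and all 49 UMIs). Flrt3, an adhesion protein, was spread over 42 cells of AAA_7 at 233 CPM and was at 4.45 CPM in AAA_14 (159 and 2 UMIs, ratio -5.39, -8.77 to -3.83). Prdm1, the repressor Blimp-1, was in 51 and 4 cells at 152 and 11.1 CPM (-3.64, -5.43 to -2.51). The 12 highest were Ciita, Birc5, Racgap1, Nde1, Ifit3, Gm20559, Cenpe, Spn, Nes, Cks1b, Il2ra and Mgl2. Spn, the sialoglycoprotein CD43 that is high in patrolling monocytes, was at 10.3 and 93.5 CPM from 4 and 9 cells (3.11, 2.02 to 4.59), and at -0.70 after thinning, from 3 and 0 UMIs. Il2ra, a chain of the interleukin-2 receptor, was at 5.86 and 118 CPM from 4 and 5 cells (4.18, 2.89 to 6.26).

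The selected cells were not uniform within a library. In AAA_7, 18 carried Spp1 without Vegfa or Adora2b, 49 carried Vegfa or Adora2b without Spp1, and 48 carried Spp1 with at least 1 of the others. In AAA_14 the numbers were 11, 14 and 7. Among the 115 cells of AAA_7, 20 had all 3 genes, and among the 32 of AAA_14, 2 had. Cells with Spp1 alone in AAA_7 had more Mmp12 (1428 CPM, against 21.3 without Spp1) and more Gpnmb (631 against 24.9), from 4 and 5 of the 18 cells. Without the cell with the most UMIs of each gene these levels were 828 against 14.6 and 373 against 18.4. Fn1 was at 3399 against 934 CPM, but 1 cell held 71.9% of the former, and without the top cells the levels were 1171 and 834. Cells without Spp1 had more Ly6c2 (1208 CPM, against 414 with Spp1 alone), Plac8 (2146 against 502) and Il1b (6743 against 2443, or 6326 against 963 without the top cells). Thbs1 was at 1970 CPM with Spp1 alone, 3311 without Spp1 and 3145 with both, and at 1232, 3084 and 2731 CPM without the top cells. In AAA_14 Thbs1 was at 1652 CPM in cells without Spp1, 356 with Spp1 alone and 95 with both, but in these last subsets 1 cell held 92.2% and 90.9% of it, and without the top cells the levels were 1293, 29.8 and 9.62 CPM. Cells with Spp1 alone had less Ly6c2 (651 CPM, against 1554 without Spp1), less Plac8 (830 against 4891) and less Il1b (651 against 1847) in AAA_14, as in AAA_7. Without the top cells Ly6c2 was at 264 against 1223 and Il1b at 328 against 1468. Fn1 was at 1793 against 832 CPM in AAA_14, and at 1080 against 663 without the top cells.

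A second split used genes the rule did not name. With 2 UMIs as the limit, 40 cells of AAA_7 carried C1q genes without Ly6c2, 30 carried Ly6c2 without C1q, 23 carried both and 22 neither, and in AAA_14 the numbers were 8, 13, 7 and 4. C1q encodes the first complement component and marks mature macrophages, while Ly6c2 marks inflammatory monocytes. In AAA_7, Spp1 was at 3860 CPM in the C1q cells and 1489 in the Ly6c2 cells, and Mmp12 at 759 and 116. Without the top cell of each gene Spp1 was at 2839 and 753 and Mmp12 at 494 and 31.6. Adora2b went the other way, at 82.4 and 262 CPM, as did Thbs1 (1926 and 4229), Il1b (3534 and 8440) and Slc16a3 (198 and 757). Vegfa was similar, at 524 and 470 CPM. Spp1, Vegfa and Adora2b are genes of the rule, and a cell poor in 1 of them had to carry another. Their opposite levels therefore follow the selection and are a description. Cells with C1q and cells with Ly6c2 were thus both found within the selection, and they also differed in genes outside the rule. Whether a barcode with both stood for 1 cell was not tested.

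**Figure D5:**
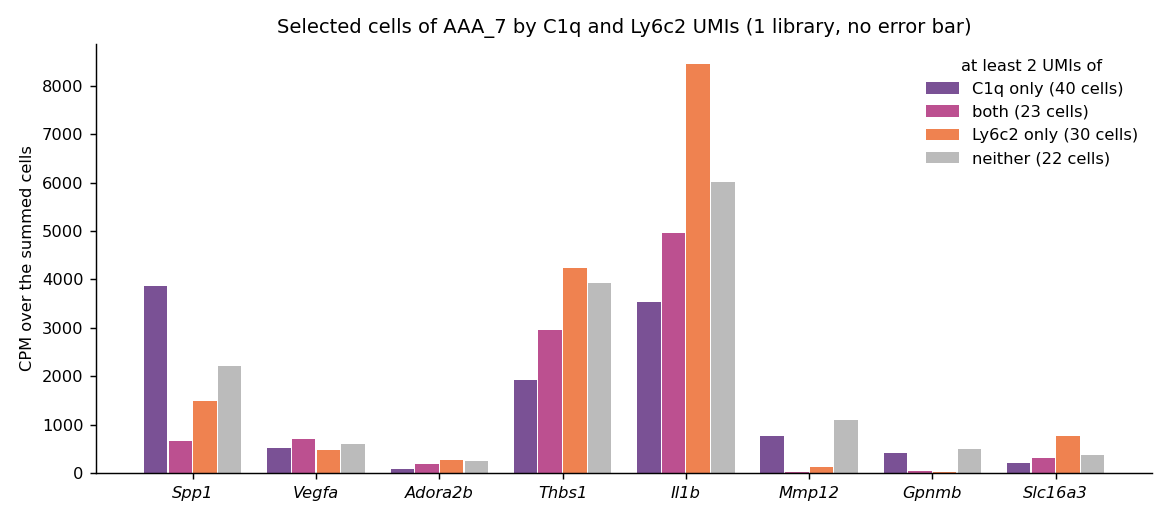
Bars give the level in CPM over the summed selected cells of AAA_7, split by whether a cell had at least 2 UMIs of the C1q genes, of Ly6c2, of both or of neither (40, 30, 23 and 22 cells); there is 1 library and so no error bar. Spp1, Mmp12 and Gpnmb are higher with C1q alone than with Ly6c2 alone, and Adora2b, Thbs1, Il1b and Slc16a3 are lower. Spp1, Vegfa and Adora2b are genes of the rule, so their levels follow the selection.

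Markers of other cells were present at low levels. Summed over their lists, they were at 93.8 CPM in AAA_7 and 111 CPM in AAA_14 for neutrophils, 111 and 77.9 for T cells, 117 and 214 for B cells, 76.2 and 82.4 for dendritic cells, 32.2 and 28.9 for fibroblasts and 2.93 and 49.0 for erythroid cells. The neutrophils and B cells of AAA_14 had 49505 and 18527 CPM of their own lists. Cxcr2 and Ly6g of neutrophils, Cd3d and Lck of T cells and Ms4a1 of B cells were at 0 in the selected cells of AAA_14, and Ly6g, Retnlg and Ngp in those of AAA_7. NK markers were at 234 CPM in AAA_7 and 15.6 in AAA_14, most of the former being the Gzma of 1 cell. UMIs of 2 or more genes of 1 such list were found in 12 of 115 selected cells of AAA_7 and in 21 of 32 of AAA_14, whose cells were also deeper. The part of free RNA and of mixed droplets in these UMIs was not tested.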

How the data were processed

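The authors deposited raw UMI counts by barcode, and the file headers name Cell Ranger 6.1.2. Seurat and the build mm10 stand in the submitters' processing notes without a role. Annotation, read filters and doublet removal were not given in the sources used here. All 3 matrices held 32285 genes, and groups came from the sample titles. The cells were selected by the rule given with the results, which uses measured values. The members of the selection, the 32 gene lists (22 of cell functions and 10 of other cells) and the comparisons were chosen with earlier results of these data known.

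UMIs of the selected cells were summed per library and divided by their total (CPM). Log2 ratios had 0.5 UMIs added to each sum, with an exact conditional binomial interval at 95%. The interval was run on simulated sums that held counting error alone, which cannot show how it behaves when cells vary. Counted genes had at least 30 UMIs over both libraries, without mitochondrial, ribosomal, haemoglobin, sex-linked, antigen receptor variable and rule genes. A gene was called higher or lower past 2-fold. List medians have order-statistic intervals over the genes. A gene at 0 UMIs was set against a floor of 3 UMIs. With 1 library per group there was no test, and nothing shows how separate pools of aortas would vary.

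Named were the rule genes, the markers, the 12 highest and 12 lowest ratios at 50 CPM or more, the 12 genes highest over the other groups at 100 CPM or more, and of each list up to 6 genes by level and 4 by ratio. Genes of 5 or fewer in a count, Adgre1 and Csf1r, and Slc2a1, Egln3 and the other genes given only by name, were added after their values were seen. Scrublet scores (scanpy 1.11.5) served to mark doublets. The threshold it set by itself marked 1, 0 and 0 cells, a failed call, so doublets stayed in and an alternative removed 12, 83 and 224 of the highest scores (0.8% per 1000 cells), which took 1 selected cell. Alternatives varied the cell filters, the rule, depth, scaling (TMM in edgeR 4.0.16, median of ratios), the minimum of UMIs, the added count and the weight of cells. Positions came from GENCODE vM21 and promoters from RefSeq. Values of 1 gene of the lists are not reported here.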

Additional observations from a re-analysis of the deposited data

Results flagged for a closer look

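For 7 of the genes named here the selected cells lay at least 2-fold above the other macrophage and monocyte groups in 1 library and at least 2-fold below them in the other. In each library the ratio is a single value from 1 pool, and the difference was not tested. Below AAA_7 by this measure in AAA_14 (difference of log2 ratios, AAA_14 minus AAA_7) were Cxcl1 (-3.62), Cxcl2 (-3.03), Lif (-3.41), Tnf (-2.87) and Gzma (-5.30), and above it were Cks1b (3.96) and Spn (2.84), whose ratio between the libraries turned to -0.70 after thinning. Cxcl2 and Tnf were carried by many cells, 107 and 83 of AAA_7 and 18 and 11 of AAA_14. Gzma had 99.0% of its UMIs of AAA_7 in 1 cell. Cxcl1 had 91.7% of its UMIs of AAA_14 in 1 cell, and Lif, a cytokine of the interleukin-6 family, a single UMI there.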

How the results depend on the processing

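The share of selected cells kept its order, higher in AAA_7, under every alternative. In AAA_7 it was 2.29% and 4.46% with at least 4 and 1 UMIs of Spp1, Vegfa and Adora2b and 5.42% without the Csf3r limit. In AAA_14 it was 1.26% and 0.384% with mitochondrial limits of 5% and 20%, 0.378% with at least 4 UMIs, 0.317% after thinning to 2000 UMIs and 1.29% without the Csf3r limit. Genes at least 2-fold higher in AAA_14 numbered 331, and 46 after thinning, 602 without the Csf3r limit, 905 without the Col1a1 limit, 214 with median-of-ratios scaling, and 965 and 2687 with a minimum of 10 and 1 UMIs. Those 2-fold lower numbered 363, and 149, 621 and 1178 after thinning and with the last 2 minima. Fewer or more genes were counted in these settings, except under the scaling.

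The hypoxia median was -0.34 after thinning. Without selected cells with 2 or more genes of another cell list the protease median was -0.27 and the monocyte median -0.61, and without the Col1a1 limit the monocyte median was -0.19. After thinning, which leaves few UMIs, these log2 ratios changed sign: Areg 0.52, Arg1 1.14, Hmgb2 -0.0070, Itgax -0.55, Mki67 -0.21, Osm 0.15, Pdgfa 1.22 and Spn -0.70. So did Arg1 (0.27) and Igf1 (-0.23) without the Csf3r limit, Hp (-0.29) without the Col1a1 limit and Elane (0.59) without its top cell. The cause was not tested. The limits on Csf3r and Col1a1 and the genes of other cells were alternatives chosen after seeing the data. No paired analysis was possible because each group has 1 library, and no replicate could be left out. Every value of AAA_14 comes from 32 cells, and after thinning many genes were left with few UMIs. Levels within subsets without the top cell of each gene were also chosen after seeing the data.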

Other observations

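Spp1, Vegfa and Adora2b were not limited to the selected cells. The resident-like macrophages of AAA_7 carried Spp1 at 419 CPM and those of AAA_14 at 25.9 CPM, against 2232 and 1073 CPM in the selected cells. Neutrophils, with Csf3r and S100a8 or S100a9, carried Vegfa at 99.5 CPM in AAA_7 and 88.0 CPM in AAA_14, against 570.0 and 125 CPM in the selected cells. Thbs1 was at 855 and 234 CPM in neutrophils, at 880.0 and 359 CPM in the Ly6c2 monocytes and at 85.8 and 102 CPM in the resident-like macrophages. Stromal cells with Col1a1 carried Fn1 at 1276 and 1653 CPM, a level close to that of the selected cells (1433 and 1142 CPM).

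In Sham, 8 of 1235 cells had at least 2 UMIs of Fn1 and Msr1 together, 1 of these also had 2 UMIs of Spp1, Vegfa and Adora2b, and that cell carried Col1a1.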
